A study of Mus musculus with 9 samples.

Results

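The subject is 9 inflammation genes in cultured mouse chondrocytes. Of them, 6 encode acute-phase or other secreted proteins (Saa1, Saa2, Saa3, Lcn2, Hp and Chil1) and 3 encode enzymes (Nos2, Nampt and Sod2). They were found by gene symbol in the GENCODE M21 annotation of GRCm38, and all 9 had a row among the 55471 genes listed in each of the 9 samples. All 9 also passed the filter on low counts that left 15362 genes for testing.

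The acute-phase response is the rise of a set of secreted proteins when tissues sense interleukin-1, interleukin-6 or tumour necrosis factor. The liver makes most of these proteins, but chondrocytes, synovial cells and white cells make some of them too, and in mice Saa3 is the serum amyloid A that is made largely outside the liver. In cartilage under inflammatory stimulation, inducible nitric oxide synthase and mitochondrial superoxide dismutase are well-known partners of this response, since cytokine-driven NF-kB raises both nitric oxide production and the enzyme that removes superoxide.

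All samples were primary articular chondrocytes from the knee surfaces (femoral condyles and tibial plateaus) of wild-type mice at postnatal day 5, and the groups were Control, Ad-OSCAR and Ad-OSCAR + 5-ASA, with 3 cultures each. Ad-OSCAR is an adenovirus that carries the osteoclast-associated receptor, a collagen-binding receptor of the immunoglobulin family, and Control cells carried the control adenovirus according to the methods. 5-ASA is 5-aminosalicylic acid (mesalazine), an anti-inflammatory drug of the bowel, given at 10 µM by the methods. What all 3 groups shared was growth on plates coated with a collagen peptide that binds the receptor, and infection with an adenovirus. The labels give 3 days of culture, infection for 2 h at 400 MOI and 36 h before 5-ASA, whereas the methods give 2 days, 800 MOI and a shorter culture after infection. The receptor was thus delivered by a virus to cells of newborn animals, outside the joint and with no interleukin-1 added. No source says whether the 3 cultures of a group came from separate animals, so the p-values measure only the spread between these samples, which may be technical. The paper says in general that each n counts biologically independent units and that data came from at least 3 independent experiments. It does not tie this to animals for these cultures.

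Total estimated counts ranged from 19733431 to 28192725 per sample. Oscar itself, the check of the labels, had 3 to 4 counts in the Control samples, 173445 to 187278 in Ad-OSCAR and 80766 to 94199 in Ad-OSCAR + 5-ASA. The summed level of 10 chondrocyte markers (Col2a1, Acan, Sox9 and others) was 38618 to 44331 counts per 1000000 (CPM, scaled by TMM normalization factors) in Control, 2373 to 2703 in Ad-OSCAR and 2833 to 3286 in Ad-OSCAR + 5-ASA, and all 10 markers fell in Ad-OSCAR. So all 10 markers were counted in every group, at a lower level after Ad-OSCAR. Matn3 was at only 4 to 10 counts per sample in the Ad-OSCAR groups with and without 5-ASA, against 919 to 1143 in Control. Most of the sum in Ad-OSCAR was Col2a1 (1947 to 2267 CPM). Of 16 macrophage and neutrophil markers, 11 had at most 3 counts in every sample, among them Ptprc, Adgre1, Itgam, Ly6g and S100a9, while the summed level of the 16 was 15.8 to 18.8 CPM in Control, 44.0 to 45.1 in Ad-OSCAR and 35.1 to 35.7 with 5-ASA. The other 5 could be tested, and 4 rose in Ad-OSCAR: S100a8 from 0.351 ± 0.178 to 8.58 ± 0.17 CPM, Cd68 from 1.99 ± 0.59 to 8.21 ± 0.06, Cd14 from 10.6 ± 0.6 to 22.2 ± 0.3 and Lyz2 from 3.55 ± 0.47 to 4.77 ± 0.62. Csf1r did not pass, and Cd68, Cd14 and S100a8 fell with 5-ASA. Of 7 hepatocyte markers, 6 (Alb, Apoa1, Apoa2, Apob, Ahsg and Serpina1b) had at most 3 counts in every sample. Fibroblast markers (8 genes) summed to 15255 to 16025 CPM in Control, 14369 to 15178 in Ad-OSCAR and 16942 to 17861 with 5-ASA, and within that sum 4 of the 8 rose and 4 fell in Ad-OSCAR. Named after their values were seen, Col1a1 fell from 9195 ± 553 to 2895 ± 186 CPM, whereas Dcn rose from 1639 ± 46 to 3521 ± 120 and Prg4 from 247 ± 8 to 897 ± 8. What part these shifts had in the results was not tested, and in such bulk samples fewer cells of a type and less RNA per cell cannot be told apart.

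By TPM, the level per length, Saa3 was the most abundant of the 9 genes and of all 55471 genes in every sample. By CPM, other genes were above it in Control, among them Col2a1 (31981 to 36792) and Col1a1 (8562 to 9586). It encodes serum amyloid A3, a small apolipoprotein-like protein that inflamed cells secrete. Saa3 (ENSMUSG00000040026.8, chromosome 7, 46711998 to 46715700, minus strand) was at 7119, 6939 and 7132 CPM in the 3 Control samples, at 28371, 30065 and 27327 in Ad-OSCAR, and at 35653, 35335 and 31905 in Ad-OSCAR + 5-ASA. The 3 groups did not overlap, and the step between Control and Ad-OSCAR was far wider than the spread within either. It rose 4.05-fold in Ad-OSCAR (log2 fold change 2.02, standard error 0.04, adjusted p = 2.89e-17, quasi-likelihood test of edgeR adjusted by Benjamini-Hochberg, as in all tests here). In transcripts per 1000000 (TPM, which corrects for transcript length and sums to the same total in each sample) its mean level went from 31807 ± 567 (SD, n = 3) in Control to 129251 ± 3628 in Ad-OSCAR and 148276 ± 4550 with 5-ASA. Its share of all TPM was 3.12% to 3.22% in Control, 12.7% to 13.3% in Ad-OSCAR and 14.3% to 15.2% with 5-ASA. In estimated counts, where a short transcript weighs less, the same shares were 0.669% to 0.684%, 2.87% to 3.13% and 3.18% to 3.55%.

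Saa1 and Saa2, the serum amyloids known from plasma during the acute phase, lie as inverted neighbours on chromosome 7, with 8809 bases between them, and moved in opposite directions in Ad-OSCAR. Saa1 (ENSMUSG00000074115.5, 46740497 to 46742980, minus strand) was at 8.59, 9.08 and 8.40 CPM in Control, at 29.1, 28.0 and 26.9 in Ad-OSCAR, and at 30.4, 29.2 and 29.9 with 5-ASA. The Control samples sat well below the other 6. Saa1 rose 3.22-fold in Ad-OSCAR (log2 fold change 1.69, standard error 0.07, adjusted p = 1.41e-13). Saa2 (ENSMUSG00000057465.5, 46751790 to 46754313, plus strand) was at 26.7, 24.1 and 24.4 CPM in Control, at 21.2, 20.7 and 18.5 in Ad-OSCAR, and at 24.0, 22.1 and 23.9 with 5-ASA. The Ad-OSCAR samples were the lowest and overlapped neither other group. Saa2 fell 1.24-fold in Ad-OSCAR (log2 fold change −0.32, standard error 0.07, adjusted p = 5.99e-04). Per length, Saa1 made up 25.0% to 28.7% of the sum of Saa1 and Saa2 TPM in Control, 58.8% to 61.8% in Ad-OSCAR and 58.7% to 59.2% with 5-ASA, so their order was reversed between Control and both Ad-OSCAR groups. Both were minor beside Saa3, whose TPM was 249 to 268 times the sum of the other two in Control, 693 to 748 times in Ad-OSCAR and 743 to 843 times with 5-ASA.

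**Figure D1:**
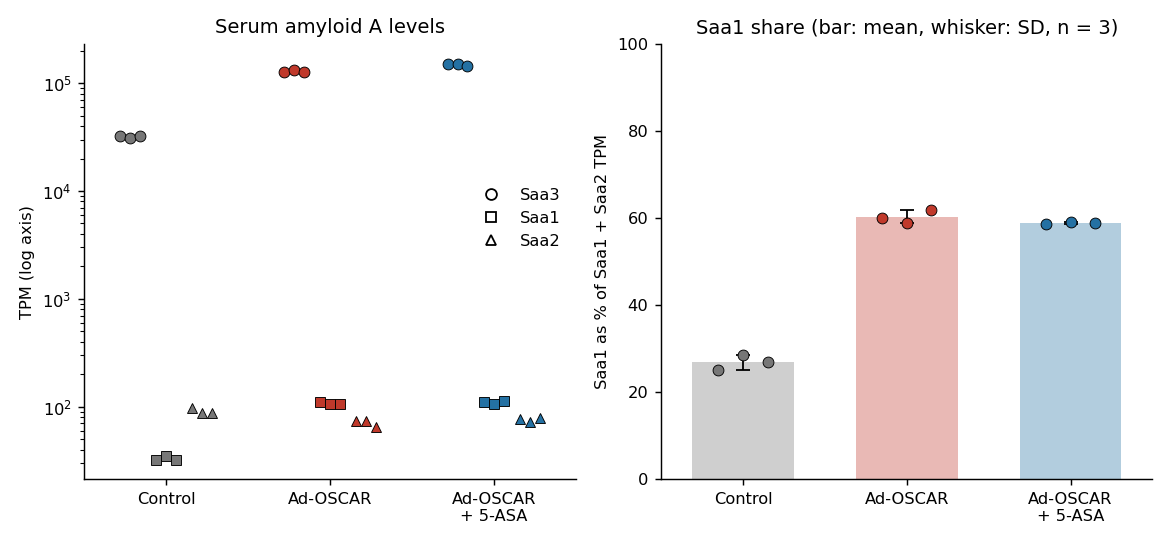
Serum amyloid A genes by group. Left, TPM of Saa3 (circles), Saa1 (squares) and Saa2 (triangles) in each of the 9 samples, on a log axis. Right, Saa1 as a percentage of the summed Saa1 and Saa2 TPM in each sample (points), with the mean (bar) and SD (whisker, n = 3). Saa1 lies below Saa2 in the 3 Control samples, at 25.0% to 28.7% of the sum, and above it in the other 6.

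The opposite direction of Saa1 and Saa2 is shown with their upstream sequence, because the pair are close copies. RefSeq promoter windows on GRCm38.p6 aligned over 249 of the 250 bases before the start, with 238 identical and 11 differing bases (95.6% identity). The 207 bases farthest from the start are printed from 5′ to 3′, since GENCODE places the first exon of Saa2 within the rest. Capitals mark bases that differ, or that have no partner within the alignment. The first base of the Saa1 line lies beyond the alignment and is left in lower case. No capital falls in the 43 bases left out.
Saa1 (chr7:46743024-46743230, minus strand): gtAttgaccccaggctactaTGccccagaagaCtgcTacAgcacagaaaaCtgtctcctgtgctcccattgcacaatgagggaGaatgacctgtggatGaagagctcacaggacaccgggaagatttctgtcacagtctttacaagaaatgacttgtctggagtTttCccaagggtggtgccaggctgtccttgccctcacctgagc
Saa2 (chr7:46751583-46751789, plus strand): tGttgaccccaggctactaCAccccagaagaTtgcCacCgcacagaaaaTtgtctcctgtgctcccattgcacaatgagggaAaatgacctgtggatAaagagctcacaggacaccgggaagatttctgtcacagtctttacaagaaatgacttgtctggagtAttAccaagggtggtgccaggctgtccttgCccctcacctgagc

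The mature transcripts of the pair were nearly as alike. The GENCODE transcripts of Saa1 (609 bases) and Saa2 (606 bases) matched at 572 of 606 aligned bases (94.4%), but none of the 510 windows of 100 bases (the read length) in Saa1 occurred unchanged in Saa2. Each full-length read from either transcript thus spans at least 1 difference. How the counting divided reads between such close copies was not tested, and both values carry that uncertainty. Saa3 shared 78.0% of 499 aligned bases with Saa1 and no such window.

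Lcn2 was the next most abundant member. It encodes lipocalin-2, which binds bacterial siderophores and is secreted by neutrophils and by stimulated chondrocytes. Lcn2 (ENSMUSG00000026822.14, chromosome 2, 32384633 to 32388252, minus strand) was at 3890.4, 3711 and 3924 CPM in Control, at 6027, 6710 and 5844 in Ad-OSCAR, and at 8674, 8545 and 8049.8 with 5-ASA. The groups did not overlap, and the levels stepped up from Control to Ad-OSCAR and again to Ad-OSCAR + 5-ASA. The rise in Ad-OSCAR was 1.61-fold (log2 fold change 0.69, standard error 0.05, adjusted p = 3.57e-10). Its rank by mean TPM among all genes was 7 in Control, 3 in Ad-OSCAR and 2 in Ad-OSCAR + 5-ASA.

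Chil1 was the next in level, with Lcn2 5.01 to 5.24 times as high by mean TPM. It encodes chitinase-like protein 1, also called YKL-40 or cartilage glycoprotein 39, which binds chitin without cleaving it. Chil1 (ENSMUSG00000064246.10, chromosome 1, 134182176 to 134190181, plus strand) was at 1334, 1287 and 1309 CPM in Control, at 2055, 2309 and 2016 in Ad-OSCAR, and at 2774, 2781 and 2758 with 5-ASA. Again the groups did not overlap, and the second Ad-OSCAR sample was the highest of its group, as it was for Lcn2, Hp, Saa3 and Nos2. Chil1 rose 1.62-fold in Ad-OSCAR (log2 fold change 0.70, standard error 0.05, adjusted p = 2.06e-10).

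Hp encodes haptoglobin, the plasma protein that captures free haemoglobin. Hp (ENSMUSG00000031722.10, chromosome 8, 109575128 to 109579172, minus strand) was at 253, 226 and 238 CPM in Control, at 941, 1058 and 843 in Ad-OSCAR, and at 1360.3, 1309.8 and 1337 with 5-ASA. Ad-OSCAR had the widest spread for Hp, with a coefficient of variation of 11.3%, and even so its lowest sample lay above every Control sample and its highest below every 5-ASA sample. The rise in Ad-OSCAR was 3.97-fold (log2 fold change 1.99, standard error 0.07, adjusted p = 9.48e-15).

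Among the enzymes, Nos2 had the largest change of the 9 genes. It encodes inducible nitric oxide synthase, which makes nitric oxide from arginine. Nos2 (ENSMUSG00000020826.9, chromosome 11, 78920787 to 78960254, plus strand) was at 186, 204 and 213 CPM in Control, at 3556, 3658 and 3584 in Ad-OSCAR, and at 3810.4, 3644 and 4032 with 5-ASA. All 6 Ad-OSCAR samples, with and without 5-ASA, lay far over Control, and those 2 groups overlapped each other. Nos2 rose 17.9-fold in Ad-OSCAR (95% confidence interval 16.5 to 19.4, log2 fold change 4.16, standard error 0.06, adjusted p = 4.44e-20), which ranked 71 of the 15362 genes by signed log2 fold change.

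Sod2 and Nampt, the other enzymes, parted ways. Sod2 encodes the manganese superoxide dismutase of mitochondria, which turns superoxide into hydrogen peroxide. Sod2 (ENSMUSG00000006818.5, chromosome 17, 13006846 to 13040063, plus strand) was at 245, 246 and 239.8 CPM in Control, at 622, 621 and 583 in Ad-OSCAR, and at 625, 616 and 600.0 with 5-ASA. Control stood apart and the Ad-OSCAR groups with and without 5-ASA overlapped. Sod2 rose 2.50-fold in Ad-OSCAR (log2 fold change 1.32, standard error 0.04, adjusted p = 6.54e-15). Nampt encodes nicotinamide phosphoribosyltransferase, the rate-limiting enzyme that salvages nicotinamide to NAD and that is also found outside cells as visfatin. Nampt (ENSMUSG00000020572.8, chromosome 12, 32819545 to 32853349, plus strand) was at 108, 115 and 110.4 CPM in Control, at 71.2, 71.3 and 76.1 in Ad-OSCAR, and at 85.7, 92.1 and 77.9 with 5-ASA. Control was highest, Ad-OSCAR lowest and 5-ASA between them, with no overlap. Nampt fell 1.52-fold in Ad-OSCAR (log2 fold change −0.61, standard error 0.06, adjusted p = 3.30e-08). Its locus overlaps that of Gdap10, a long noncoding RNA on the same strand, without a shared exon.

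**Figure D2:**
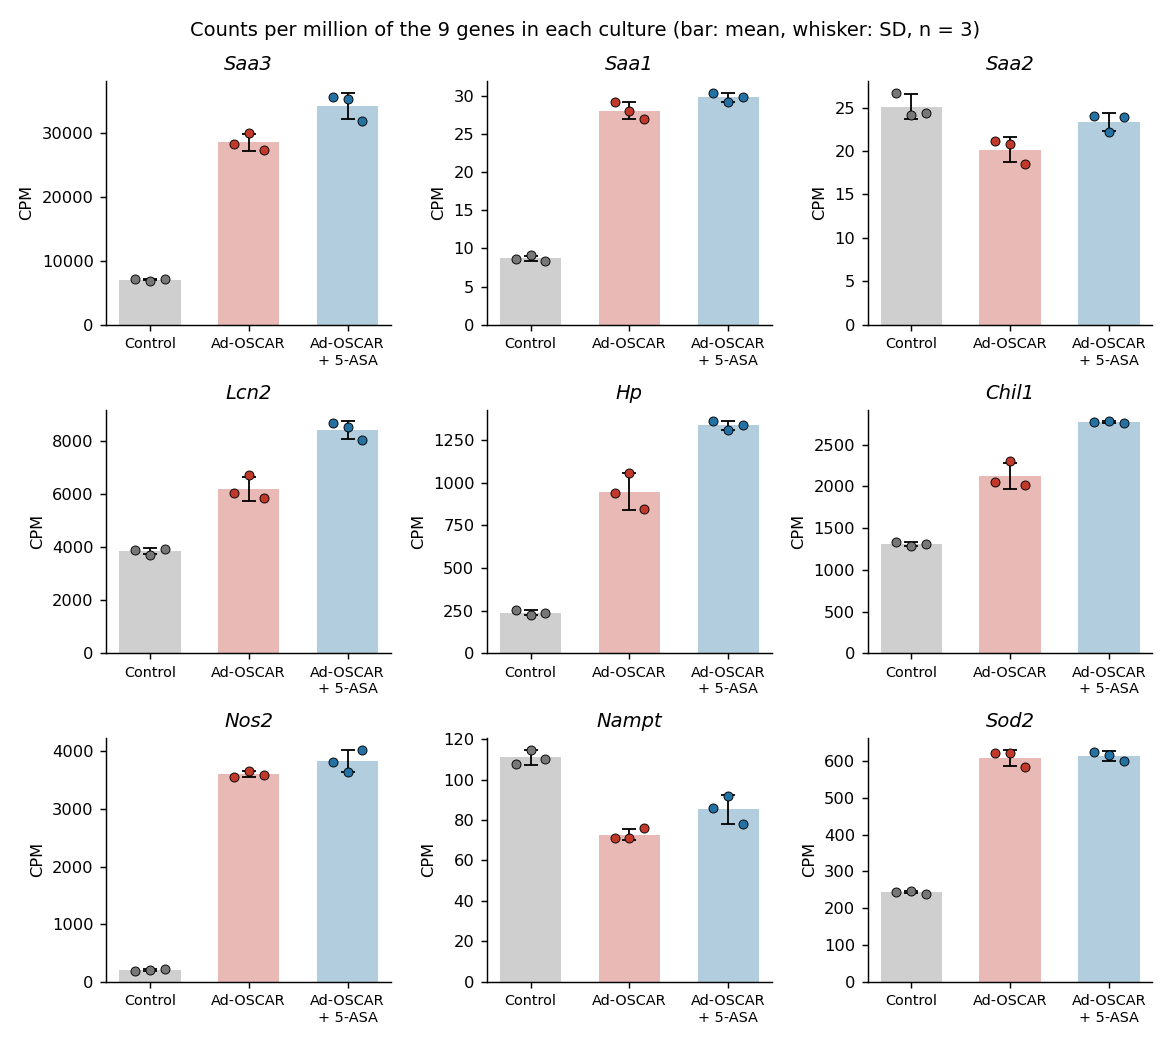
CPM (linear axes from 0) of the 9 genes in each of the 9 samples (points), with group means (bars) and SD (whiskers, n = 3). As a ratio, Nos2 shows the widest gap between Control (186 to 213 CPM) and Ad-OSCAR (3556 to 3658 CPM), and Saa2 and Nampt are the only ones of the 9 that are lower in Ad-OSCAR than in Control.

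In Ad-OSCAR against Control, then, 7 of the 9 genes rose (Saa1, Saa3, Lcn2, Hp, Chil1, Nos2 and Sod2) and 2 fell (Saa2 and Nampt). Over all tested genes 32.7% rose and 32.2% fell. The 3 samples of each group did not overlap for any of the 9 genes. Of all tested genes, 35% lay apart and higher in Ad-OSCAR and a further 34% lay apart and lower. Since most tested genes changed in this comparison, a call alone says little about a member. Past the limit of 1.5 on the log2 scale that the study used, 4 of the 9 rose (Saa1, Saa3, Hp and Nos2), against 4.57% of all genes. The median log2 fold change of the 9 was 1.32, beside 0.02 over all genes tested. Scaling by library totals alone moved the median of all genes by 0.13 on the log2 scale in this comparison, and no member changed direction or lost its call.

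In Ad-OSCAR + 5-ASA against Ad-OSCAR, which asks what the drug changed in cells with the receptor, none of the 9 genes fell and 6 rose, all by less than 1.5-fold, a limit that 2.27% of all genes passed upward. On the log2 scale Hp rose by 0.50 (95% confidence interval 0.36 to 0.63, 1.41-fold, adjusted p = 2.12e-05), Lcn2 by 0.44 (0.34 to 0.54, 1.36-fold, adjusted p = 3.15e-06) and Chil1 by 0.38 (0.28 to 0.48, adjusted p = 1.24e-05), all by edgeR. Saa3 rose by 0.26 (0.17 to 0.35, adjusted p = 2.31e-04). So 4 of the secreted members that were higher in Ad-OSCAR were higher again with the drug. Nampt (by 0.23, 0.11 to 0.35, adjusted p = 0.00983) and Saa2 (by 0.21, 0.07 to 0.36, adjusted p = 0.0386) rose as well, which for both is the opposite of their fall in Ad-OSCAR. Both comparisons share the 3 Ad-OSCAR samples with opposite sign, so noise in those samples alone can give opposite directions. The background was 10.4% of tested genes higher (1598) and 7.38% lower (1134). That balance depended on the scaling, since with library totals alone 1057 genes were higher and 2523 lower. Leaving out 1 sample at a time gave 1146 to 1624 higher and 721 to 1127 lower. For these 6 genes and Saa1 all 3 samples with 5-ASA lay above all 3 without, as in 17.8% of all genes. The median log2 fold change of the 9 was 0.23, beside −0.004 over all genes. Lcn2, Hp and Chil1 passed in all 18 alternative fits, Saa3 in 16, Nampt in 13 and Saa2 in 10. On log2 TPM 3 of the 9 genes passed. Far fewer genes than the 1598 above were higher on that scale, so the 10.4% is not its background. Saa2 did not pass without Ad-OSCAR replicate 2 (0.23) or 3 (0.15) or without Ad-OSCAR + 5-ASA replicate 1 (0.19) or 3 (0.20), nor did Nampt without Ad-OSCAR replicate 1 (0.21) or Ad-OSCAR + 5-ASA replicate 2 (0.17).

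No difference with 5-ASA passed the test for Nos2, Saa1 and Sod2. The log2 fold change was 0.09 for Nos2 (95% confidence interval −0.01 to 0.19, adjusted p = 0.226), 0.09 for Saa1 (−0.03 to 0.21, adjusted p = 0.318) and 0.01 for Sod2 (−0.08 to 0.10, adjusted p = 0.896). These intervals leave room for rises of up to 1.14-fold in Nos2, 1.15-fold in Saa1 and 1.07-fold in Sod2, and for a level as low as 0.95-fold in Sod2. The sign of Nos2 and Sod2 in this comparison turned with the scale: on log2(TPM + 1) they were at −0.01 and −0.10. Beside these values, Oscar was lower with 5-ASA by 0.97 on the log2 scale (6665 ± 397 CPM in Ad-OSCAR and 3399 ± 404 with 5-ASA, n = 3 each, adjusted p = 1.76e-08), and what part that had in the members' levels was not tested.

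**Figure D3:**
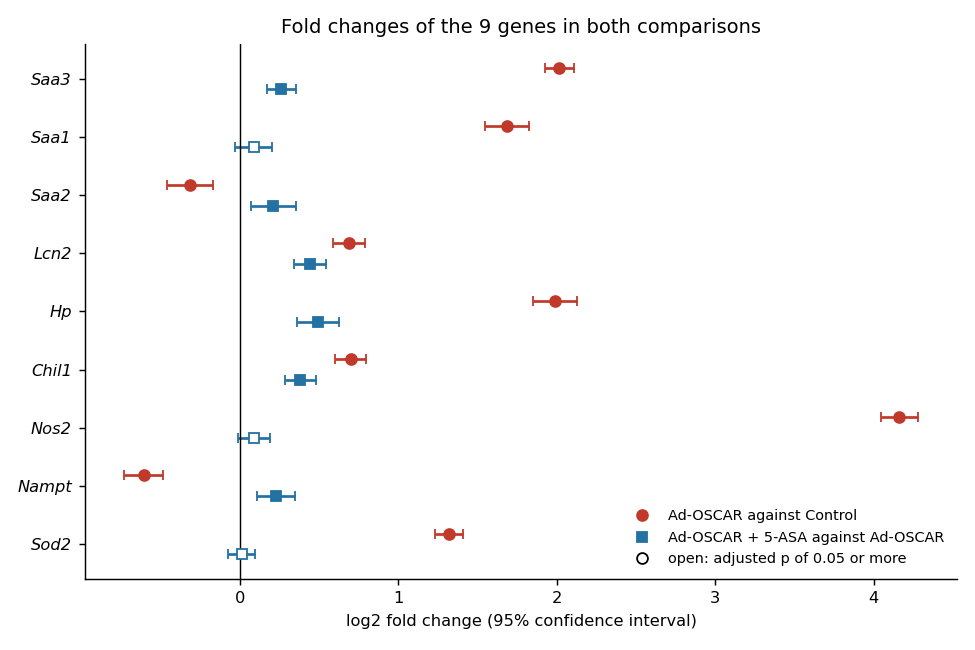
Log2 fold changes of the 9 genes with 95% confidence intervals, for Ad-OSCAR against Control (red circles) and Ad-OSCAR + 5-ASA against Ad-OSCAR (blue squares). Open symbols had an adjusted p of 0.05 or more. All 9 red symbols are filled, with Nos2 at 4.16, whereas the blue ones lie between 0.01 and 0.50, and those of Saa1, Nos2 and Sod2 are open.

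Against Control, the 5-ASA samples kept 7 genes higher and 1 lower, where 31.4% of tested genes were higher and 31.8% lower. This comparison shares its samples with both others, so its values are only set beside them. The log2 fold changes were 4.25 for Nos2, 2.48 for Hp, 2.28 for Saa3, 1.77 for Saa1, 1.33 for Sod2, 1.13 for Lcn2 and 1.08 for Chil1. Nampt was at −0.38 (adjusted p = 1.32e-05, edgeR) and Saa2 at −0.10 (adjusted p = 0.194, 95% confidence interval −0.25 to 0.04). Saa2 was thus the 1 member for which no difference from Control passed in the treated cells, although the 3 treated samples lay just below the 3 Control samples (24.0 CPM at most against 24.1 at least), as in 33.2% of all genes. That absence rests on the count fit: with limma on either log2 TPM scale the Saa2 difference from Control was -0.24 and passed, and over all alternatives its adjusted p ranged from 0.00847 to 0.547.

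Ranked per length, the order of the members was Saa3, Lcn2, Chil1, Sod2, Hp, Saa2, Nos2, Nampt and Saa1 in Control, from 31807 TPM down to 33.2 TPM. In Ad-OSCAR it was Saa3, Lcn2, Chil1, Nos2, Hp, Sod2, Saa1, Saa2 and Nampt, from 129251 down to 32.2 TPM. Nos2 moved from the seventh place to the fourth (82.8 ± 5.8 TPM in Control and 1510 ± 11 in Ad-OSCAR), and Saa1 from the last to the seventh (33.2 ± 1.6 and 107 ± 3 TPM). With 5-ASA the order was that of Ad-OSCAR with Hp (1826 ± 50 TPM) before Nos2 (1504 ± 99 TPM). Sample ranges of neighbours in these orders did not overlap, with 1 exception, Nos2 and Hp in Ad-OSCAR, at 1510 ± 11 and 1375 ± 131 TPM. Together the 9 genes made up 4.22% to 4.37% of all TPM in Control, 14.7% to 15.6% in Ad-OSCAR and 16.9% to 17.8% with 5-ASA, and Saa3 alone was 73.6% to 73.8%, 85.6% to 86.2% and 84.5% to 85.2% of that.

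The genes with the nearest pattern were sought among 13267 genes over the 9 samples, by the root mean square difference of centred log2 CPM. All genes of a sample share its library and depth, and the distance is a description. Lcn2 and Chil1 were each other's nearest gene, at a distance of 0.04 on the log2 scale, and Col3a1, a fibrillar collagen, came next for Chil1 (0.06). The nearest to Saa3 were Rnd1 (0.06), Rassf4 (0.07) and Nt5e (0.08), and Rnd1 was also the nearest to Hp (0.11), with Saa3 in the third place (0.13). Nos2 had no gene as close, with Pim2 (a survival kinase) at 0.14, Il6 at 0.18 and Icosl (a costimulatory ligand) at 0.19. Sod2 lay nearest to Znrf1 (0.04), Slc20a1 (0.06) and Pdgfa (0.06), and Saa1 nearest to Lrig1 (0.05), Rgs4 (0.07) and Dstn (0.07). Of those that fell, Nampt was nearest to Bnip3 (0.03), Tmem45a (0.04) and Spidr (0.05), and Saa2 to Bcat2 (0.04), Hspa2 (0.05) and Dhrs3 (0.05).

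Sequence before the start sites was searched for 3 short motifs on both strands, since several members are textbook targets of cytokine-driven factors. RefSeq windows were at hand for 7 of the 9 genes (Hp and Nos2 had none), and the 250 bases before the start were searched. The C/EBP motif TTGCNNAA was found in Lcn2, Saa1, Saa2 and Saa3 (4 of 7), beside 9.56% of the 32851 promoter windows. It lies at 182 to 175 bases before the start of Saa1 and at 183 to 176 in Saa2, in a stretch without a difference between the copies (ttgcacaa in both lines above). In Lcn2 it lies at 216 to 209, inside an exon of an alternative Lcn2 transcript in GENCODE, so that sequence is not printed. The NF-kB consensus was found in Chil1 and Sod2 (2 of 7, beside 3.90% of windows), and the STAT motif TTCNNNGAA in Sod2 (beside 7.02% of windows). Nampt held none of the 3. None of these matches overlapped another motif, and a match is a description of letters, not a binding site. The Saa3, Chil1 and Sod2 sequences are given for the matches they hold, which are in capitals, up to the first GENCODE exon.
Saa3 (C/EBP, chr7:46715701-46715926, minus strand): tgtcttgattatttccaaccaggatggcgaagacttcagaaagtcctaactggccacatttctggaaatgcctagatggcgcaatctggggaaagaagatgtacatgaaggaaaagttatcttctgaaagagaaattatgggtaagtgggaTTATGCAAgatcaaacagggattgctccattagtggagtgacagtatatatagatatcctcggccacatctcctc
Chil1 (NF-kB, chr1:134181906-134182155, plus strand): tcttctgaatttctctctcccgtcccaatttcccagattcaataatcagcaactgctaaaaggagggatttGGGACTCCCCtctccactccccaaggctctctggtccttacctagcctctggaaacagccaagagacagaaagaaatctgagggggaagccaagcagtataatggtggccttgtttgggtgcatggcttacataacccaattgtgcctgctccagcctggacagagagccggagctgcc
Sod2 (STAT, then NF-kB, chr17:13007589-13007816, plus strand): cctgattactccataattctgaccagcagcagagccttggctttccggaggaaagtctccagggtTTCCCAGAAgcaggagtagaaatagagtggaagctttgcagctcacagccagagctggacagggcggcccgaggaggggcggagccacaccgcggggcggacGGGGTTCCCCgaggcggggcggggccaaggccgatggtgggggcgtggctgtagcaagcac

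The counts of companion genes that follow are to be read beside all tested genes, of which 32.7% rose and 32.2% fell in Ad-OSCAR, and 10.4% rose and 7.38% fell with 5-ASA. Other acute-phase proteins were mixed. Of 25 listed, 13 could be tested, of which 8 rose and 5 fell in Ad-OSCAR. Hpx (hemopexin, which binds free haem) went from 0.702 ± 0.094 to 1.89 ± 0.63 CPM and Saa4, the constitutive serum amyloid A, from 3.10 ± 0.27 to 8.03 ± 0.44, so both rose from low levels. Serpina3n, a serine protease inhibitor, fell from 519 ± 31 to 160 ± 12 CPM and Orm1 (orosomucoid) from 1.97 ± 0.36 to 0.543 ± 0.107. With 5-ASA 4 rose and 1 fell. Lbp, the lipopolysaccharide binding protein, rose from 279 ± 21 to 479 ± 10 CPM, and Ptx3, a long pentraxin, from 1112 ± 36 to 1698 ± 111. In Ad-OSCAR, Lbp had fallen from 330 ± 17 CPM in Control and Ptx3 had risen from 839 ± 21. The other 12 did not pass the filter, with at most 15 counts in any sample, among them Crp, Apcs and the fibrinogen chains.

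Of 28 upstream cytokines, receptors and factors, 25 could be tested, and 15 rose and 4 fell in Ad-OSCAR. Lif rose from 9.21 ± 1.12 to 529 ± 18 CPM and Il6 from 52.9 ± 6.2 to 1061 ± 53, both cytokines of the gp130 family that drive acute-phase genes through STAT3. Stat3 (log2 fold change 0.07), Socs3 (−0.12) and Il6ra (−0.07) did not pass and Il6st fell (−0.17), all named after their values were seen. Nfkbiz, the atypical inhibitor protein that aids NF-kB at Lcn2 and Il6, rose from 159 ± 7 to 675 ± 4 CPM. Il1a was at 0.092 ± 0.045 CPM in Control, under the level of 3 counts (0.106 to 0.152 CPM), and at 5.40 ± 0.13 in Ad-OSCAR, so no fold is given. With 5-ASA 3 of the 25 rose and 5 fell. Il1r1, the signalling receptor of interleukin-1, rose 1.41-fold from 72.2 ± 2.9 to 102 ± 0.4 CPM. That followed a 2.78-fold fall in Ad-OSCAR from 201 ± 5 CPM in Control, and with 5-ASA it was still 1.98-fold below Control. Named after their values were seen, Il1b, Tnf and Osm did not pass the filter, with at most 7, 15 and 0 counts in any sample.

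Receptors and partners of the members were tested for 13 of 18, and 7 rose and 4 fell in Ad-OSCAR. Il13ra2, a receptor that binds Chil1, rose from 8.08 ± 0.96 to 250 ± 17 CPM. Tlr2, a receptor for serum amyloid A among other ligands, rose from 37.4 ± 3.9 to 144 ± 6 CPM, and Mmp9, the gelatinase that Lcn2 can bind, from 1.19 ± 0.22 to 8.36 ± 0.70. Scarb1, the scavenger receptor that takes up serum amyloid A with lipoproteins, fell from 139 ± 8 to 53.0 ± 0.5 CPM. With 5-ASA 5 rose and 2 fell, with Mmp9 up 1.52-fold and Hmox1, which degrades haem, down 1.43-fold (140 ± 4 to 97.9 ± 6.5 CPM). Cd163, the receptor that clears haptoglobin with haemoglobin, had 0 counts in all 9 samples. In the chitinase family, 2 of 8 genes beside Chil1 could be tested, and Ctbs rose (15.2 ± 0.7 to 19.2 ± 1.2 CPM) while Chid1 fell (66.5 ± 2.1 to 58.6 ± 1.6), and neither passed with 5-ASA.

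Around Nos2, the nitric oxide and arginine list had 17 of 22 genes tested, with 6 higher and 7 lower in Ad-OSCAR. Those that rose included genes that handle the substrate. Slc7a2, an arginine transporter, went from 423 ± 6 to 2601 ± 98 CPM, and Ass1, which rebuilds arginine from citrulline, from 17.4 ± 0.4 to 85.1 ± 1.9. Arg2, the mitochondrial arginase, which uses the same substrate, rose from 1.73 ± 0.22 to 21.8 ± 1.4 CPM. With 5-ASA 3 of the 17 rose and 2 fell. Slc7a1, another arginine transporter, rose 1.73-fold (94.2 ± 6.4 to 163 ± 6 CPM) after a 1.58-fold fall in Ad-OSCAR from 149 ± 5 CPM in Control, and Ass1 fell 1.33-fold to 63.8 ± 3.9. Nos1 and Nos3, the other nitric oxide synthases, did not pass the filter, with at most 12 and 8 counts in any sample.

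Around Nampt, 19 of 22 genes of NAD metabolism were tested, and 11 rose and 2 fell in Ad-OSCAR. Cd38, which consumes NAD, rose from 0.374 ± 0.161 to 3.40 ± 0.77 CPM, and Nt5e, the CD73 ectonucleotidase, from 220 ± 14 to 947 ± 15. Sarm1, another NAD-consuming enzyme, rose from 1.09 ± 0.17 to 1.84 ± 0.06 CPM, whereas Parp1, also a consumer, fell from 82.5 ± 0.6 to 49.7 ± 2.3. With 5-ASA 4 rose and none fell, with Cd38 up 1.53-fold and Nadk2 up 1.24-fold (18.4 ± 0.6 to 22.8 ± 2.2 CPM).

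Around Sod2, 23 of 26 genes of superoxide and peroxide metabolism were tested, and 10 rose and 7 fell in Ad-OSCAR. Sod3, the extracellular superoxide dismutase, rose 2.30-fold (725 ± 31 to 1667 ± 136 CPM), close in size to Sod2 at 2.50-fold. Nox4 and Cybb, catalytic subunits of superoxide-producing oxidases, rose from 2.64 ± 0.65 to 5.67 ± 0.61 CPM and from 0.061 ± 0.073 to 1.45 ± 0.19, the latter from under the level of 3 counts. Gpx7, a peroxidase of the endoplasmic reticulum, fell from 46.5 ± 0.9 to 19.5 ± 1.1 CPM. With 5-ASA 4 rose and none fell, among them Sod3 (1.24-fold) and Gpx3 (1.18-fold), while Sod2 was at 1.01-fold.

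The median log2 fold change in Ad-OSCAR was 0.49 for the other acute-phase proteins, 0.45 for NAD metabolism and 0.33 for the upstream cytokines and factors, beside 0.02 over all genes tested. It was 0.17 for receptors and partners, 0.09 for nitric oxide and arginine, 0.08 for the chitinase family and 0.01 for superoxide and peroxide genes. With 5-ASA the list medians were 0.15 for the other acute-phase proteins and between −0.09 and 0.06 for the rest.

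**Figure D4:**
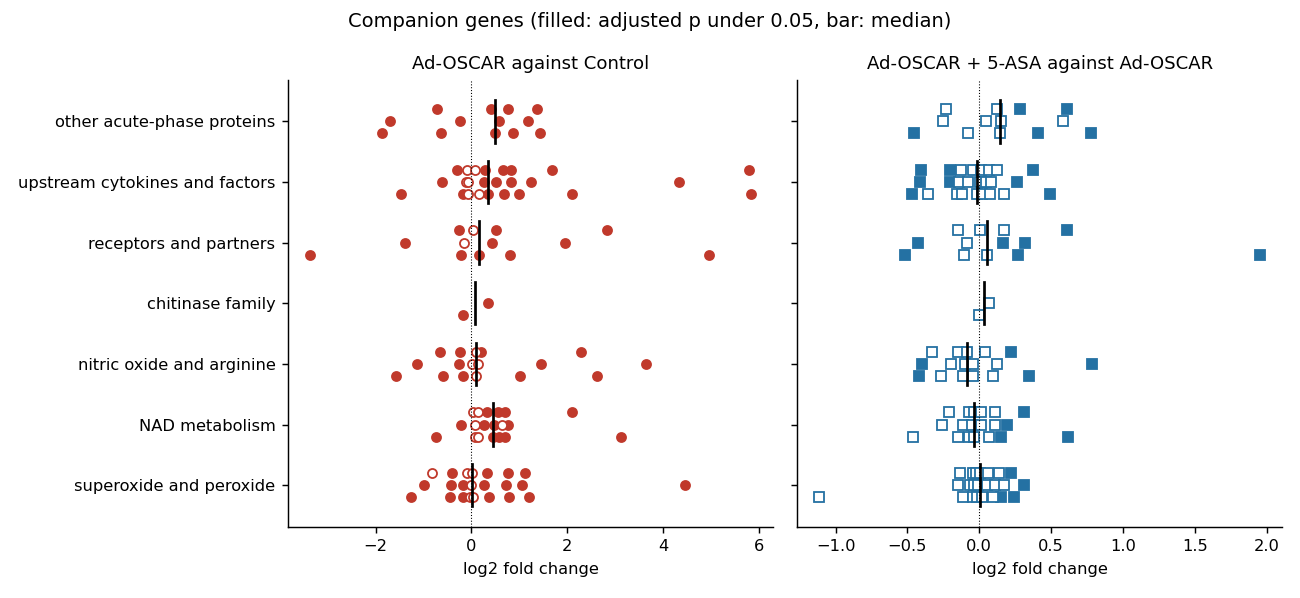
Log2 fold changes of the tested genes in 7 companion lists, for Ad-OSCAR against Control (left) and Ad-OSCAR + 5-ASA against Ad-OSCAR (right, on its own axis scale), with filled symbols for adjusted p under 0.05 and a bar at each list's median. Left medians run from 0.01 for superoxide and peroxide genes to 0.49 for other acute-phase proteins, and right medians from −0.09 to 0.15. Il1a (at 5.78) and Cybb (at 4.45) on the left start from Control means under the level of 3 counts, so their fitted values depend on the prior count.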

How the data were processed

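RNA from 9 cultures was sequenced as paired reads of 100 bases. The authors trimmed reads with BBDuk, aligned them to GRCm38 with STAR 2.7.1a and made estimated counts and TPM per gene with RSEM 1.3.1, as the methods and submitters' processing notes give it (the reporting summary names another version of RSEM). The library kit keeps strand, but whether counting used strand is not given in the sources used here. The deposited estimated counts are unscaled, and between 8.97% and 10.1% of genes had a value that was not whole. The deposited TPM sum to 1000000 per sample and are scaled by effective length.

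Estimated counts were rounded and tested with edgeR 4.0.16 in R 4.3.3 (TMM normalization, filterByExpr by group, quasi-likelihood F test without robust estimation, Benjamini-Hochberg adjustment over 15362 genes, threshold 0.05), with all 9 samples in 1 fit and group as the only factor. The biological coefficient of variation was 5.11%. Standard errors were derived from each log2 fold change and its F statistic. DESeq2 1.42.0, the tool in the study's methods, and limma 3.58.1 on log2(TPM + 1) and log2(TPM + 0.1) were alternatives. Replicates of a group differed by more than sampling noise in all 9 pairs. A level of 3 counts was taken as the smallest that can be shown, for counting error only. Symbols and coordinates are from GENCODE M21, and promoter sequences from RefSeq (GRCm38.p6). Protein sequences were not used here.

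The 9 genes and all companion lists were chosen with earlier results of these data known. Besides the 9 genes and Oscar, the text names from each list up to 4 genes with the largest absolute log2 fold change in Ad-OSCAR against Control, and up to 2 in Ad-OSCAR + 5-ASA against Ad-OSCAR (adjusted p under 0.05 and a mean of at least 1 CPM), and the 3 nearest genes by pattern. Some genes that this rule would name are not reported here.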

Additional observations from a re-analysis of the deposited data

How the results depend on the processing

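Over 18 alternative fits of 9 genes in 3 comparisons (486 values), 462 kept their direction and their side of the threshold, 15 lost the call, 2 gained it and 7 changed sign. In Ad-OSCAR against Control all 9 calls held in every alternative, with 7 members higher and 2 lower throughout. The changes of sign were in Ad-OSCAR + 5-ASA against Ad-OSCAR and in genes without a call there. Sod2 (0.01) was at −0.0597 by library totals, −0.10 on log2(TPM + 1) and log2(TPM + 0.1), −0.0222 without Ad-OSCAR replicate 3 and −0.00138 without Ad-OSCAR + 5-ASA replicate 1 (from −0.0222 to 0.0274 without 1 sample), and Nos2 (0.09) at −0.0082 on both TPM scales. The cause was not tested.

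In Ad-OSCAR + 5-ASA against Ad-OSCAR, 3 members (Lcn2, Hp and Chil1) were higher on both TPM scales in place of 6, and leaving out 1 sample at a time gave 5 to 6. Saa3 lost its call on both TPM scales (0.20 on each). Saa2 lost it in 8 alternatives, among them DESeq2 (0.22) and the fits without Ad-OSCAR replicate 2 (0.23), Ad-OSCAR replicate 3 (0.15), Ad-OSCAR + 5-ASA replicate 1 (0.19) and Ad-OSCAR + 5-ASA replicate 3 (0.20), and Nampt in 5, among them those without Ad-OSCAR replicate 1 (0.21) and Ad-OSCAR + 5-ASA replicate 2 (0.17). Over all genes, higher calls went from 1598 to 1057 by library totals (chosen after seeing the data), 562 on log2(TPM + 1) and 560 on log2(TPM + 0.1), and lower calls from 1134 to 2523 by library totals. Without 1 sample they were 1146 to 1624 and 721 to 1127, lowest for lower calls without Ad-OSCAR + 5-ASA replicate 1 (721) and Ad-OSCAR replicate 1 (736). Against Control, 2 members were lower with 5-ASA on both TPM scales in place of 1, since Saa2 (−0.24) then passed.

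Same-numbered samples did not deviate together (mean correlation −0.02, from −0.07 to 0.04, over 9 pairs of samples), so the numbers were not taken as pairs. A sample correlated best with its own number in 6 of 18 sets of another group. With the replicate number as a block, 7, 6 and 7 members were higher and 2, 0 and 1 lower in the 3 comparisons, as without it, and all genes gave 1483 higher and 1017 lower calls with 5-ASA against Ad-OSCAR. The protein comparison planned for serum amyloid A was not run.

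Depth limits Saa1 and Saa2 most, with 159 to 859 and 462 to 625 counts per sample. The adenoviral dose differs between labels (400 MOI) and methods (800 MOI), and no source ties cultures to animals.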
